A study of Caenorhabditis elegans with 15 samples.

Results

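A set of 250 genes separated both DBL-1 pathway mutants of the nematode Caenorhabditis elegans from the wild type without overlap. For each of these genes all 10 mutant libraries, 5 of *sma-3* mutants and 5 of *sma-6* mutants, lay on the same side of all 5 wild-type libraries. The values that chose them were CPM, the count of a gene relative to the total of its library after composition scaling by TMM. The set made up 1.54% of the 16259 genes listed, with 68 genes higher and 182 lower in the mutants. Their separation from the wild type is therefore how they were selected, and their levels and fold changes against the wild type are given as a description without a test. The difference between the mutants was tested, although the rule favours genes in which it is small.

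RNA with poly-A tails was sequenced from whole animals at the L2 larval stage, kept at 20 °C on NGM agar plates with E. coli as food. The wild type was the laboratory strain N2 (replicates 1 to 5). The first mutant group carried a mutation in *sma-3* (replicates 2, 3, 4, 5 and 9) and the second a mutation in *sma-6* (replicates 1, 2, 3, 4 and 6), and the alleles are not given in the sources used here. Libraries held 16.5 to 48.3 M counts, and the sequencing sample numbers in their titles ran in separate blocks for the 3 genotypes, so that library order and genotype cannot be told apart. RNA of whole animals was measured, in which fewer cells of a type and less RNA per cell cannot be told apart.

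DBL-1 is a bone morphogenetic protein (BMP) ligand secreted mainly by neurons. It is bound by a receptor pair, SMA-6 and DAF-4, which act on the Smad proteins SMA-2, SMA-3 and SMA-4, and the Smads then regulate transcription in the nucleus. In C. elegans the pathway is known for setting body size through the hypodermis, and it also acts in male tail patterning, in innate immunity and in fat storage. Animals that lack the ligand, the receptors or the Smads are small.

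Of the 250 genes, 243 passed the filter on low counts (64 higher, 0.466%, and 179 lower, 1.3%), which was 1.77% of the 13720 genes tested. A pooled comparison, the mean of both mutants with equal weight against the wild type, was fitted to all 15 libraries with edgeR's quasi-likelihood test. It called 825 genes (6.01%) at a Benjamini-Hochberg adjusted p under 0.05, of which 254 (1.85%) were higher and 571 (4.16%) lower in the mutants. Of the 243 genes 221 were among them, a count that the selection itself raises. Fold changes below are log2 values from this pooled comparison unless a single mutant is named, and "called" means this threshold. A pooled call does not require a change in both mutants, so the calls counted below need not be shared.

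Most of the shared changes were small. The median log2 fold change was 0.54 over the genes higher in the mutants and -0.33 over the genes lower in the mutants, and 28 genes had a change of at least 2-fold, 19 upward and 9 downward. At the edge of the set, *lam-2*, a laminin chain of basement membranes, had a lowest mutant value that barely exceeded its highest wild-type value (239 to 276 CPM in the wild type, 276 to 332 CPM in the mutants). The cytidine deaminase gene *cdd-1* was the other gene just inside, at 20.7 to 25.9 CPM against 13.01 to 20.6 CPM. *T13F2.2* and *ckb-2*, a choline kinase gene, fell just outside, at 41.97 to 44.4 against 28.2 to 41.97 CPM and at 38.9 to 49.4 against 26.1 to 38.9 CPM.

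The balance of the directions depended on the scaling. When libraries were scaled by their total counts alone, the set held 205 genes, 106 higher and 99 lower, of which 155 were in the main set. The pooled comparison then called 712 genes with 399 higher and 313 lower, 56.04% higher against 30.8% with TMM. Under TMM, DESeq2's size factors and library totals alike, 154 genes kept their place in the set (61 higher, 93 lower), and 125 did so (46 higher, 79 lower) also when any 1 library was left out or a trend on exon length was removed. Leaving out a library can remove a gene only through the refitted scaling, so the omissions say little about the stability of the set. The number of genes called in the pooled comparison was 470, 451, 498 and 522 without wild-type replicate 1, 2, 3 or 4, and 1134 without wild-type replicate 5.

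Wild-type replicate 5 limited the set more than any other library. It alone kept 201 genes out (50 higher, 151 lower), while each other wild-type library alone kept out 49 to 71 and each mutant library 11 to 93. In log2 CPM over the genes tested it lay at a root mean square distance of 0.377 from its own group and 0.359 from the *sma-3* libraries. Each of the remaining wild-type libraries lay closer to its own group, at 0.270 to 0.317, than to either mutant. Without it the set held 452 genes, 117 higher and 335 lower. Adult yolk (vitellogenin) transcripts summed to 212 CPM in wild-type replicate 3, while the remaining libraries of its group held 0.772 to 2.97 CPM and the mutants 0.661 to 17.7 CPM. No vitellogenin gene was in the set.

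**Figure D1:**
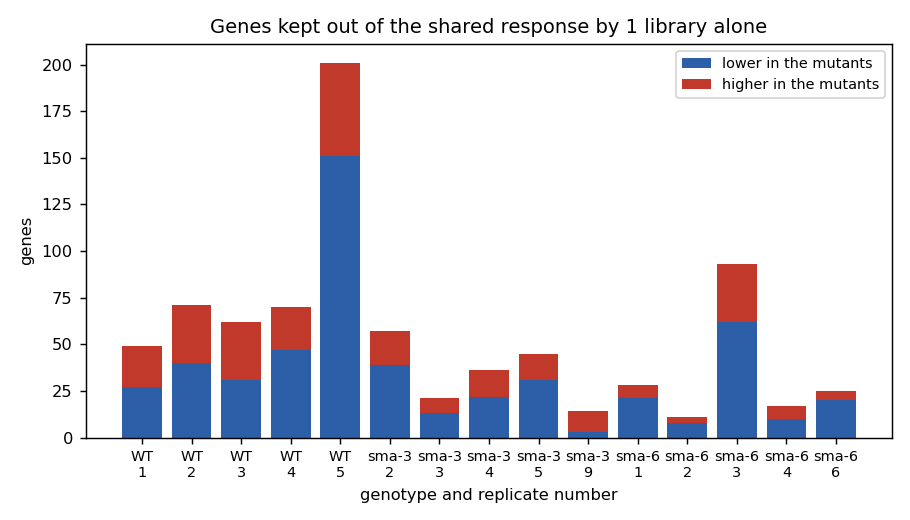
Number of genes (y axis) kept out of the shared response by 1 library alone, for each of the 15 libraries by genotype and replicate number (x axis), stacked by direction. Wild-type (WT) replicate 5 kept out 201 genes, and the next highest library, *sma-6* replicate 3, kept out 93.

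The genes mutated in the strains were measured first. *sma-6* (WBcel235; WBGene00004860, chromosome II, 6324484 to 6327355, plus strand), the type I receptor of the pathway, was at 43.3, 44.1, 40.3, 47.7 and 37.2 CPM in wild-type replicates 1 to 5. In *sma-3* mutants it was at 23.2, 23.9, 25.1, 27.02 and 25.1 CPM, and in *sma-6* mutants at 8.83, 9.12, 9.73, 9.21 and 9.75 CPM. The 3 groups did not overlap: the transcript was low in *sma-3* mutants (log2 fold change -0.77) and lower still in *sma-6* mutants (-2.19). *sma-3* (WBGene00004857, chromosome III, 6860974 to 6863968, minus strand), a Smad, was at 26.3, 27.9, 22.6, 32.5 and 25.5 CPM in the wild type, 10.2, 9.47, 10.8, 10.2 and 8.86 CPM in *sma-3* mutants and 24.3, 25.4, 22.01, 24.8 and 21.8 CPM in *sma-6* mutants. All *sma-3* mutant libraries lay below all others, while the *sma-6* mutants overlapped the wild type, so *sma-3* was not in the shared set.

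Besides *sma-6*, 3 genes of the pathway were in the set: another Smad was lower, and 2 extracellular or membrane components were higher. *sma-2* (WBGene00004856, chromosome III, 8749680 to 8757089, plus strand), the Smad partner of SMA-3, was at 16.2, 18.1, 19.3, 19.3 and 18.9 CPM in the wild type, 11.1, 8.95, 13.01, 11.5 and 12.2 CPM in *sma-3* mutants and 10.3, 8.398, 9.83, 8.94 and 10.7 CPM in *sma-6* mutants (log2 fold change -0.81, SE 0.08). The lowest wild-type library, replicate 1, stayed above the highest mutant library, *sma-3* replicate 4.

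*lon-1* (WBGene00003055, chromosome III, 5474476 to 5478005, plus strand) encodes a secreted cysteine-rich protein that limits body length and is known as a target repressed by the pathway. It was at 105, 104, 128, 120.1 and 137 CPM in the wild type, 225, 182, 190.2, 185 and 191 CPM in *sma-3* mutants and 180.3, 169.7, 172, 169 and 165 CPM in *sma-6* mutants (0.62, SE 0.07). Every mutant library exceeded the highest wild-type library, and *sma-3* replicate 2 was the highest of all. *sma-10* (WBGene00020649, chromosome IV, 274420 to 279943, plus strand), a membrane protein with leucine-rich and immunoglobulin repeats that binds the receptors, was at 35.7, 38.1, 26.3, 39.8 and 32.7 CPM, 39.98, 43.7, 45.4, 56.3 and 44.95 CPM and 48.1, 54.6, 51.8, 72.1 and 48.3 CPM in the same order (0.54, SE 0.11). The wild-type libraries all lay below the mutants, with wild-type replicate 4 within 1 CPM of the lowest mutant library.

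Over the whole list of 29 genes of the DBL-1 pathway and its neighbours, the pooled comparison called 2 higher and 4 lower (20.7%, against 6.01% of all genes), and the median log2 fold change was 0.03 against 0.01 over all genes tested. The calls were *lon-1*, *sma-10*, *sma-6* and *sma-2*, which are in the set and whose separation the rule fixed, with *sma-3* (edgeR adjusted p = 2.26e-06) and *mab-31* (-0.17, edgeR adjusted p = 0.0443), which are not. The share includes both mutated genes, *sma-3* and *sma-6*, and is raised by them. *sma-3* had a log2 fold change of -1.44 in its own mutants and -0.19 in *sma-6* mutants. The *mab-31* call was lost in most alternatives. The ligand *dbl-1* had a log2 fold change of 0.22 (adjusted p = 0.177), the type II receptor *daf-4* 0.03 (adjusted p = 0.785) and the Smad *sma-4* -0.06 (adjusted p = 0.584), none of them called.

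The largest rises were those of *asp-12*, *Y69H2.9*, *clec-70*, *C32H11.4*, *F49C12.7*, *ech-9*, *nas-27*, *ugt-18*, *C52A10.2* and *oac-58*, taken among genes whose average log2 CPM was 1 or more. Judged by gene family alone, roles among them were digestion, lectin-type immunity, lipid breakdown, cuticle processing and detoxification, none of which was measured here. *asp-12* (WBGene00017678, chromosome V, 8269210 to 8272056, plus strand), an aspartyl protease, was at 12.3, 12.2, 10.6, 13.1 and 13.7 CPM in wild-type replicates 1 to 5. It was at 132, 67.8, 84.5, 77.8 and 106 CPM in *sma-3* mutants and at 93.2, 66.7, 116, 74.4 and 116 CPM in *sma-6* mutants. The log2 fold change was 2.92 (SE 0.18), and the lowest mutant library stood far above the highest wild-type library. *asp-12* did not differ detectably between the mutants (difference -0.01, SE 0.17, edgeR adjusted p = 0.982).

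*Y69H2.9* (gene WBGene00013484, chromosome V, 18701538 to 18706098, plus strand) was at 1.05, 1.54, 1.41, 1.64 and 1.76 CPM in the wild type, 11.6, 8.36, 9.59, 10.2 and 10.7 CPM in *sma-3* mutants and 11.3, 11.3, 11.7, 13.7 and 10.9 CPM in *sma-6* mutants (2.87, SE 0.12). Both mutants spanned a narrow range well above all wild-type libraries. The C-type lectin gene *clec-70* (WBGene00021581, chromosome IV, 3932708 to 3936307, plus strand) was at 0.830, 0.856, 0.418, 0.506 and 0.997 CPM, 6.60, 5.03, 4.34, 6.26 and 4.96 CPM and 2.86, 1.99, 3.77, 2.38 and 2.94 CPM in the same order (2.38, SE 0.21). The *sma-3* libraries were the highest as a group, and both mutants stood above the wild type.

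*ech-9*, an enoyl-CoA hydratase homolog of fatty acid oxidation, was at 2.38, 2.78, 2.61, 3.67 and 3.46 CPM in the wild type, 8.77, 8.01, 9.47, 9.23 and 7.54 CPM in *sma-3* mutants and 15.4, 7.45, 9.22, 10.4 and 11.1 CPM in *sma-6* mutants (1.70, SE 0.16). The mutants overlapped each other and not the wild type. *nas-27*, an astacin-type metalloprotease, rose from 1.90 ± 0.450 CPM in the wild type to 6.38 ± 2.11 CPM in *sma-3* mutants and 5.93 ± 1.97 CPM in *sma-6* mutants (SD, n = 5 each; 1.70). *ugt-18*, a UDP-glucuronosyltransferase, rose from 2.29 ± 0.603 CPM to 7.32 ± 1.83 and 5.95 ± 1.56 CPM (1.56). The remaining rises were *C32H11.4* (1.90), which encodes a CUB-like protein, *F49C12.7* (1.84), *C52A10.2* (1.49) and *oac-58* (1.29), an O-acyltransferase homolog.

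The largest falls were those of *tag-293*, *F26G1.11*, *C44C1.6*, *sma-6*, *fat-7*, *rpl-37*, *F08A8.2*, *Y94H6A.10*, *sma-2* and *cyp-13A12*. *tag-293* (WBGene00015398, chromosome V, 7354435 to 7355564, minus strand) was at 14.8, 13.7, 18.3, 12.1 and 15.6 CPM in wild-type replicates 1 to 5, 1.60, 2.57, 1.07, 1.91 and 1.14 CPM in *sma-3* mutants and 4.81, 4.88, 3.31, 5.37 and 4.06 CPM in *sma-6* mutants (-2.46, SE 0.15). All *sma-3* libraries were below all *sma-6* libraries, which were below all wild-type libraries. *F26G1.11* fell from 5.34 ± 1.14 CPM in the wild type to 1.37 ± 0.127 CPM in *sma-3* and 0.954 ± 0.230 CPM in *sma-6* mutants (SD, n = 5 each; -2.21), and *C44C1.6* from 4.77 ± 0.613 CPM to 1.41 ± 0.627 and 1.04 ± 0.126 CPM (-1.97).

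*fat-7* (WBGene00001399, chromosome V, 7151353 to 7153146, minus strand), a stearoyl-CoA desaturase that makes monounsaturated fatty acids in the intestine, was at 71.3, 83.0, 59.2, 66.2 and 44.8 CPM in the wild type, 34.8, 28.01, 19.7, 29.2 and 29.9 CPM in *sma-3* mutants and 17.2, 23.3, 16.5, 20.4 and 20.95 CPM in *sma-6* mutants (-1.46, SE 0.13). The lowest wild-type library was replicate 5, still above every mutant library, and most *sma-6* libraries lay below most *sma-3* libraries. *rpl-37* (-0.93), a ribosomal protein of the large subunit, is uncertain where reads are shared with near-identical ribosomal sequences. *cyp-13A12* (-0.80) encodes a cytochrome P450, and *F08A8.2* (-0.90) and *Y94H6A.10* (-0.87) completed the lower genes.

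**Figure D2:**
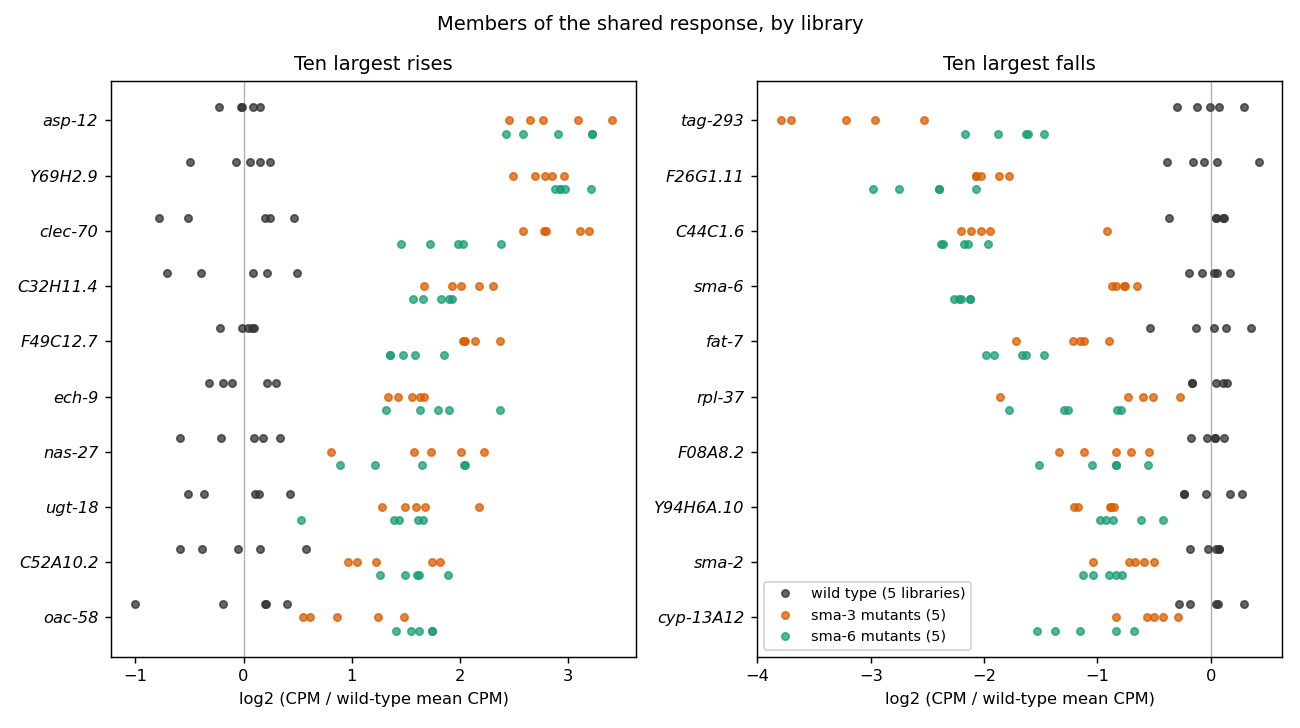
Each library's CPM relative to the wild-type mean on a log2 scale (x axis) for the 10 largest rises (left) and the 10 largest falls (right) among genes of the shared set whose average log2 CPM was 1 or more. Each point is 1 library, black for the wild type, orange for *sma-3* and green for *sma-6* mutants, and in every row the black points do not overlap the coloured points.

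Below that level of expression, *C08E3.13* was chosen after its values were seen. It had 39 to 135 counts in each wild-type library and 0 counts in all 10 mutant libraries, so it was at least 208-fold lower in the mutants (3 counts over the 10 libraries taken as the floor, counting error only). Its neighbour *C08E3.1* was also in the set but too low to be tested. *F26G1.10* was chosen in the same way. It lay at 2.58 to 3.69 CPM in the wild type against 0.0483 to 0.566 CPM in the mutants (-3.46), and its position on chromosome II (WBcel235, 4774382 to 4774883) is near that of *F26G1.11* (4777137 to 4778104).

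All calls among genes of fatty acid synthesis were lower. Of 37 tested, 11 fell and 0 rose in the pooled comparison by edgeR, DESeq2 and limma-voom alike (29.7% called by edgeR, against 4.16% of all genes called lower; 15 at an unadjusted p under 0.05), and the median log2 fold change over the list was -0.06 against 0.01. Leaving out 1 library at a time gave 8 to 13 falls, and library totals gave 7. The set held 4 of them: *fat-7*, *elo-5* (-0.48), an elongase for branched-chain fatty acids, *elo-9* (-0.33), and *art-1* (-0.20), a homolog of the enoyl-CoA reductase of fatty acid elongation. The others called were *fat-6* (-0.34, edgeR adjusted p = 0.00225), the second stearoyl-CoA desaturase of the intestine, *elo-2* (-0.42, edgeR adjusted p = 0.0119), *let-767*, *hpo-8*, *acs-4*, *acs-7* and *acs-19*. *elo-5* was at 293.5, 306, 282, 284 and 268 CPM in the wild type, 203, 216, 217, 211 and 209.8 CPM in *sma-3* mutants and 243, 210.0, 206, 125 and 219.6 CPM in *sma-6* mutants, with wild-type replicate 5 the lowest of its group and *sma-6* replicate 4 the lowest of all.

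The 2 lipid carriers in the set were both lower, which is too few genes for a result about their group. Of 26 genes for lipid binding and yolk proteins 3 were called, all lower (11.5%, against 4.16% of all genes called lower), with a median of -0.04. Among the 3 was *lbp-4*, whose call rested mainly on *sma-3* animals. It changed by -0.52 with *sma-3* mutated and by -0.10 with *sma-6* mutated (edgeR adjusted p of the difference 0.00608). Under library totals 1 was called higher and 2 lower, with a median of 0.02 against 0.06 over all genes. The set held *lbp-6*, a fatty acid binding protein, at 670.1, 670.2, 809.9, 681 and 674 CPM in the wild type, 520.3, 594, 533, 526 and 429 CPM in *sma-3* mutants and 584, 544, 564, 497 and 614 CPM in *sma-6* mutants (-0.38). It also held *dsc-4* (-0.23), the large subunit of the microsomal triglyceride transfer protein. For lipases and β-oxidation the calls went both ways, 4 higher and 5 lower of 78 (11.5%, against 6.01% of all genes; median -0.06), and 4 and 3 under library totals. They were 1 higher and 2 lower without wild-type replicate 2 and 3 higher and 10 lower without wild-type replicate 5, and *ech-9* was the only one of them in the set.

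A group of genes known from the surface, granules and junctions of the intestine was picked out of the lower genes of the set after the values had been seen, so its direction is part of the choice. It covers uptake and the apical surface, with *pept-1*, the oligopeptide transporter, *aqp-4* (-0.47), an aquaporin, *scav-5* (-0.35), a scavenger receptor homolog, and *sid-2* (-0.37), which takes up double-stranded RNA from the gut. It also covers gut granules, with the half-transporters *haf-4* (-0.47) and *haf-9* (-0.41), the terminal web and brush border, with the intermediate filaments *ifc-1* (-0.45) and *ifp-1* (-0.24), the actin regulator *eps-8* (-0.29) and the ezrin homolog *erm-1* (-0.17), and the gap junction protein *inx-15* (-0.29). *pept-1* was at 476, 513, 430.5, 479.6 and 436 CPM in the wild type, 345.4, 378, 345.4, 369 and 396 CPM in *sma-3* mutants and 395, 361, 352, 298 and 367 CPM in *sma-6* mutants (-0.37, SE 0.06). Both mutants lay below the wild type over overlapping ranges.

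*aqp-4* was at 51.3, 51.1, 46.3, 43.4 and 42.9 CPM in the wild type, 36.8, 31.8, 37.2, 32.1 and 32.5 CPM in *sma-3* mutants and 36.8, 34.1, 31.03, 27.9 and 38.6 CPM in *sma-6* mutants. *haf-4* was at 243, 252, 227, 244 and 201 CPM, 158, 173, 156, 151 and 144 CPM and 183, 176, 198, 166 and 189 CPM in the same order. Of the mutants, *sma-3* animals had the lower *haf-4* level (difference of *sma-6* minus *sma-3* 0.22, edgeR adjusted p = 0.0274), while *ifc-1* and *eps-8* were lower in *sma-6* mutants (-0.26, adjusted p = 0.0235, and -0.17, adjusted p = 0.0202).

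Of 5 general markers of the intestine, 4 fell in the pooled comparison: *elt-2* (-0.31, edgeR adjusted p = 0.0149), the GATA factor of the intestine, *ifb-2*, *act-5* and *spl-1*, while *ges-1* was not called. Their summed level was 1887 to 2441 CPM in the wild type, 1419 to 1876 CPM in *sma-3* mutants and 1849 to 2075 CPM in *sma-6* mutants, and the lowest wild-type value was that of replicate 5. The most abundant of the 5, *act-5*, had means of 1408 CPM (wild type), 978 CPM (*sma-3*) and 1331 CPM (*sma-6*). Its log2 fold change was -0.53 for *sma-3* and -0.08 for *sma-6*, a difference that edgeR called (adjusted p = 0.0048). The pooled call of *act-5* (adjusted p = 0.0447) thus rested mainly on *sma-3* animals. DESeq2 called 4 of the 5 markers and limma-voom 3. None of the 5 was in the set and none was at 0. Their part in the lower level of the intestinal genes chosen above was not tested. That choice left out all higher genes of the set. Digestive and lysosomal proteases, for one, stood on both sides of the set, 2 higher and 4 lower. Body-wall muscle markers had 1 call upward of 5 and sums of 9040 to 11673 CPM in the wild type, 10658 to 11974 CPM in *sma-3* and 12098 to 14548 CPM in *sma-6* mutants. Of 25 markers of neurons, hypodermis, pharynx, germ line, oocytes and sperm, edgeR, DESeq2 and limma-voom each called 0, and 0 had an unadjusted p under 0.05.

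**Figure D3:**
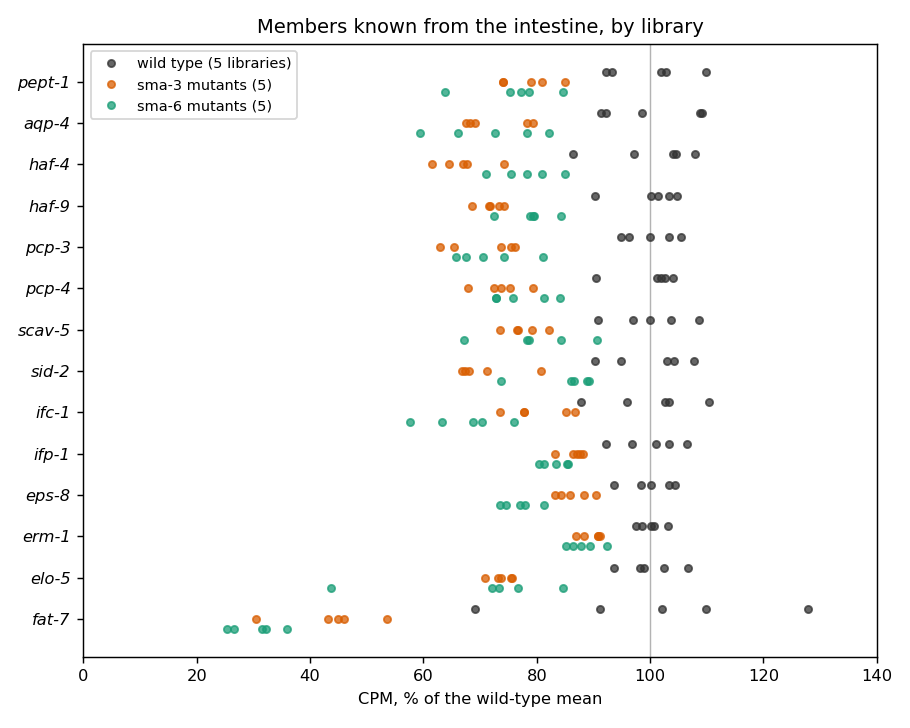
CPM of each library as a percentage of the wild-type mean (x axis) for 14 genes of the shared set known from the intestine, chosen from the lower genes after their values were seen. Points are libraries, black for the wild type, orange for *sma-3* and green for *sma-6* mutants, and each mutant point lies below all wild-type points of its gene, as the choice requires.

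Protease calls went both ways. Of 28 digestive and lysosomal proteases tested 3 were called higher and 4 lower (25% called, against 6.01% of all genes; median 0.01). The set held 6 of the 28, 2 higher and 4 lower, beside 1.77% of all genes tested. The prolyl carboxypeptidase homologs *pcp-1* (-0.25), *pcp-3* (-0.49) and *pcp-4* (-0.41) and the cathepsin Z homolog *cpz-2* (-0.28) were lower. *asp-12* and *cpr-4*, a cathepsin B homolog, were higher. *cpr-4* was at 315, 275, 391, 394 and 384 CPM in the wild type, 612, 534, 597, 544 and 534 CPM in *sma-3* mutants and 523, 458, 409, 552 and 398 CPM in *sma-6* mutants (0.55, SE 0.09).

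Lectins and CUB-like proteins, which include many genes known from the response to bacteria, also went both ways. Of 159 tested 12 were called higher and 14 lower (16.4%; median -0.03), and 11 were in the set. The 5 higher were *clec-70*, *C32H11.4*, *clec-45* (1.29), *clec-17* and *F49F1.5* (1.02). The 6 lower were *clec-258* (-0.97), *clec-57* (-0.66), *clec-170* (-0.59), *clec-56* (-0.42) and the galectins *lec-10* (-0.50) and *lec-12* (-0.29). *clec-17* was at 22.3, 20.5, 28.2, 19.3 and 18.2 CPM in the wild type, 43.6, 49.5, 41.3, 51.6 and 48.9 CPM in *sma-3* mutants and 48.7, 55.5, 32.9, 53.9 and 48.2 CPM in *sma-6* mutants (1.13), with *sma-6* replicate 3 the lowest mutant library. *clec-57* fell from 31.3 ± 4.34 CPM in the wild type to 18.6 ± 1.41 CPM in *sma-3* and 20.96 ± 2.54 CPM in *sma-6* mutants (SD, n = 5 each). Antimicrobial peptides and lysozymes had 4 calls of 69 (5.8%, against 6.01% of all genes), 2 in each direction. The set held only *fipr-13* of them, which was too low to be tested.

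Detoxification genes were called lower more often than higher, 18 against 5 of 185 (12.4%, against 6.01% of all genes; median 0.04). Calls over all genes tested were also more often lower, at 4.16% against 1.85%. The 18 became 10 without wild-type replicate 1, 2 or 3. The 5 became 2 without *sma-3* replicate 9 or *sma-6* replicate 2 and 9 without *sma-6* replicate 1. Library totals gave 12 lower and 10 higher. The set held 7 lower, beside 1.3% of all genes tested. They were the cytochromes P450 *cyp-13A12* and *cyp-37A1* (-0.31), the glutathione S-transferase *gst-1* (-0.48), and the glucuronosyltransferases *ugt-19* (-0.56), *ugt-48* (-0.45), *ugt-26* (-0.30) and *ugt-23* (-0.20). *gst-1* was at 141, 140.5, 166, 157 and 156 CPM in the wild type, 99.4, 106, 86.9, 114 and 101 CPM in *sma-3* mutants and 99.2, 112.5, 135, 122 and 117 CPM in *sma-6* mutants. *ugt-18* was the only member of the list that was higher in the set.

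Of 125 cuticle collagens 8 rose and 0 fell in the pooled comparison (6.4%, against 1.85% of all genes called higher; median 0.01), with 24 at an unadjusted p under 0.05 in either direction. DESeq2 called 12 higher and 2 lower, and limma-voom 6 and 1. The 8 became 4 or 5 without wild-type replicate 1, 2, 3 or 4 or without *sma-6* replicate 1 or 6. The set held *col-162*, at 16.1, 16.2, 13.9, 13.7 and 11.9 CPM in the wild type, 19.3, 23.4, 16.99, 26.1 and 18.7 CPM in *sma-3* mutants and 23.6, 21.6, 20.5, 18.2 and 26.02 CPM in *sma-6* mutants (0.57), and *col-156* (0.44), 2 of the 125 beside 1.77% of all genes tested. Of 47 astacins and cuticle-processing enzymes 2 were called higher and 3 lower (10.6%, against 6.01% of all genes), the 3 becoming 0 without wild-type replicate 3 or 4. The set held *nas-27* and *nekl-3* (-0.19), a kinase needed for molting. Of 36 cuticlins edgeR, DESeq2 and limma-voom each called 0, with 3 at an unadjusted p under 0.05, and no hedgehog-related or patched-related gene was in the set.

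Of 85 proteasome subunits and chaperones 17 were called lower and 1 higher (21.2%, against 6.01% of all genes; median -0.14). The 17 became 3 under library totals, 4 to 8 without any 1 of wild-type replicates 1 to 4, and 6 to 11 without *sma-3* replicate 4, 5 or 9 or *sma-6* replicate 2, 4 or 6. The set held *pas-5* (-0.21), a subunit of the proteasome core, and the J-domain proteins *dnj-20* (-0.19) and *dnj-30* (-0.16). Of 78 cytosolic ribosomal proteins 3 were called lower (3.85%, against 4.16% of all genes; median -0.16), 1 without wild-type replicate 1, 2 or 3, 5 without *sma-3* replicate 2 and 13 without wild-type replicate 5, with *rpl-37* and *rpl-29* (-0.30) in the set. Of 96 mitochondrial ribosomal and respiratory chain genes 5 were called lower (5.21%, against the same 4.16%; median -0.13), 17 without wild-type replicate 5 and 0 without wild-type replicate 2, and none was in the set.

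**Figure D4:**
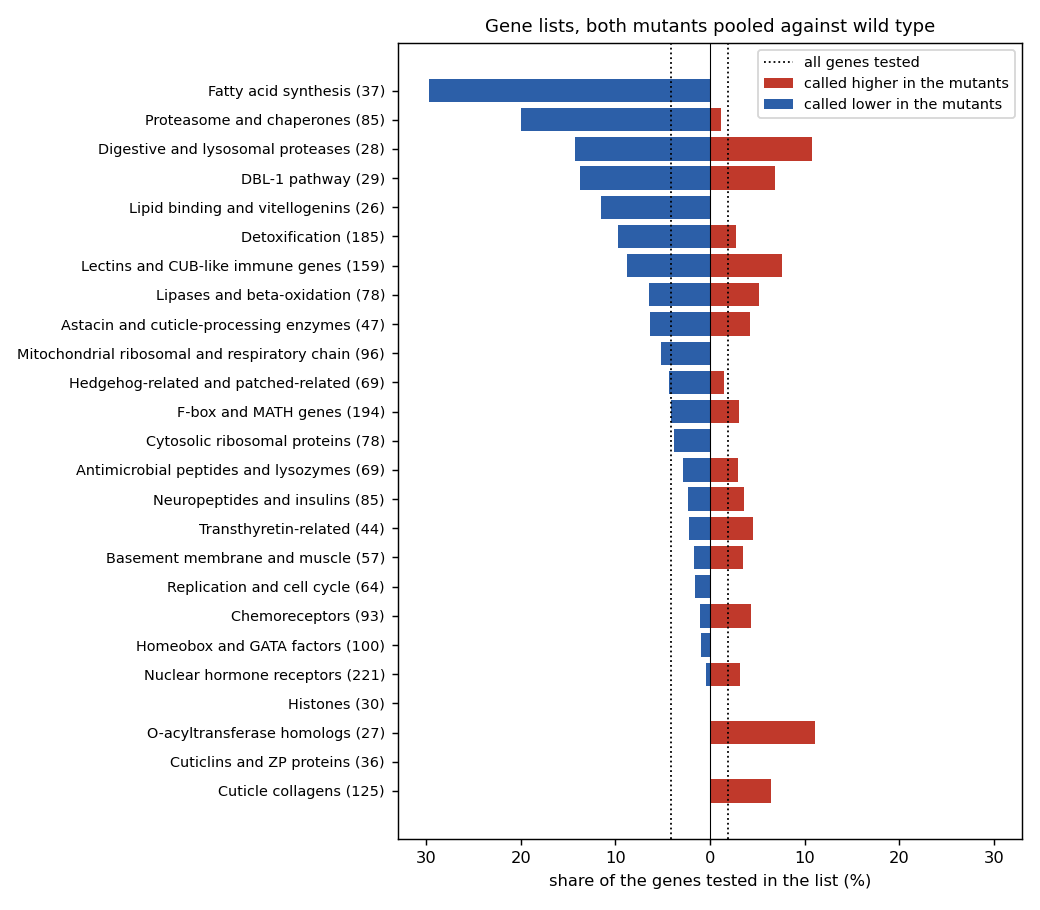
Share of the tested genes of each list that the pooled comparison called higher (red, to the right) or lower (blue, to the left) in the mutants, in percent, with the number tested in brackets. Dotted lines mark the shares over all genes tested, 1.85% higher and 4.16% lower, and the longest bar is that of fatty acid synthesis, at 29.7% lower.

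Of 85 neuropeptides and insulins 3 were called higher and 2 lower (5.88%, against 6.01% of all genes; median 0.10). The 3 became 1 without any 1 of 9 libraries, among them wild-type replicates 1, 2 and 4, 10 without *sma-6* replicate 3, and 13 with the trend on exon length removed. The set held *pdf-1*, a neuropeptide of locomotion and arousal, and *ins-35*, an insulin-like peptide. *pdf-1* was at 54.8, 60.9, 63.9, 56.4 and 57.5 CPM in the wild type, 66.5, 66.6, 67.5, 84.5 and 80.2 CPM in *sma-3* mutants and 90.3, 91.5, 64.6, 91.1 and 82.5 CPM in *sma-6* mutants (0.42). *ins-35* was at 18.8, 19.4, 19.98, 19.7 and 20.8 CPM, 12.73, 17.7, 13.1, 15.04 and 11.1 CPM and 15.1, 15.4, 11.6, 11.1 and 13.2 CPM in the same order (-0.54). The insulin receptor *daf-2* (0.20) was also in the set, chosen here after its value was seen.

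The other lists gave the following, beside 6.01% of all genes tested called (1.85% higher, 4.16% lower) and 1.77% in the set. Shares near or below 6.01% are no result about a family. Nuclear hormone receptors had 7 calls higher and 1 lower of 221 (3.62%), where the 7 became 0 without wild-type replicate 3 and at most 6 without any other library, with *nhr-120* (0.19) in the set. F-box and MATH genes had 6 higher and 8 lower of 194 (7.22%), with the 8 at 4 without wild-type replicate 1 or 4 and the 6 at 3 without wild-type replicate 1 or 2. In the set were *fbxa-189* (1.43) higher and *math-18* (-0.50), *bath-47* (-0.39) and *skr-3* (-0.31) lower. Of 93 chemoreceptors tested 4 were called higher and 1 lower (5.38%; median 0.20), with 0 higher without wild-type replicate 3 and 7 without *sma-3* replicate 2 or *sma-6* replicate 3. The 1 called lower, *srw-85*, was not a shared change, with 0.65 in *sma-3* mutants and -5.45 in *sma-6* mutants. The set held *sra-10* (0.46) and *srx-84*, the latter too low to be tested. The 27 O-acyltransferase homologs had 3 calls, all higher (11.1%; median 0.28), among them *oac-58*, and 7 without wild-type replicate 5. Transthyretin-related genes had 2 higher and 1 lower of 44 (6.82%), with *ttr-51* (-0.28) in the set. Basement membrane and muscle genes had 2 higher and 1 lower of 57 (5.26%), with *lam-2* (0.19) in the set. The 2 became 0 without wild-type replicate 3 or *sma-6* replicate 2 and 4 without *sma-3* replicate 2 or 5. They were *ttn-1* and *unc-22*, and both calls rested mainly on *sma-6* animals. With *sma-6* mutated each rose by 0.52, against 0.04 for *ttn-1* and 0.07 for *unc-22* with *sma-3* mutated. The 1 called lower was *act-5*, used above as an intestine marker. Homeobox and GATA factors had 1 call of 100, *elt-2*, replication and cell cycle genes 1 of 64, *rnr-2*, and histones 0 of 30 by edgeR and limma-voom and 1 by DESeq2, with 1 at an unadjusted p under 0.05.

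In all, 58 of the 250 genes were on 1 of the 25 lists (21 higher, 37 lower) and 192 on none (47 higher, 145 lower). The genes named next were picked out of these after their values were seen, and their direction is no result about their groups. Protein folding and glycosylation in the endoplasmic reticulum were represented by the lectin chaperones *crt-1* (-0.28), calreticulin, and *cnx-1* (-0.17), calnexin, and by *ribo-1* (-0.18), a subunit of the oligosaccharyl transferase. Translation and splicing were represented by the aminoacyl-tRNA synthetases *sars-1* (-0.22), *vars-2* (-0.21) and *dars-1* (-0.17), the small nuclear ribonucleoproteins *snr-3* (-0.22) and *snr-6* (-0.32), and *pabp-2* (-0.20), a nuclear poly-A binding protein. Small-molecule metabolism included *daf-36* (-0.59), the Rieske oxygenase that begins the synthesis of dafachronic acid from cholesterol, *smd-1* (-0.41), S-adenosylmethionine decarboxylase, *gss-1* (-0.27), glutathione synthetase, and *hyl-1* (-0.27), a ceramide synthase.

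*daf-36* was at 21.1, 22.6, 20.7, 25.3 and 18.1 CPM in the wild type, 13.4, 14.3, 13.6, 14.1 and 13.7 CPM in *sma-3* mutants and 16.2, 14.9, 17.1, 10.1 and 15.9 CPM in *sma-6* mutants. *crt-1* was at 3077, 2839, 2930.3, 3045 and 2854 CPM, 2592, 2233, 2094, 2159 and 2176 CPM and 2685, 2529.8, 2789, 2618 and 2562 CPM in the same order, and stood lower in *sma-3* animals than in *sma-6* animals (difference 0.23, edgeR adjusted p = 0.0157). Genes of the set with known roles in neurons, muscle or cell junctions, again chosen after their values were seen, stood on both sides. Lower was *bas-1* (-0.27), the aromatic amino acid decarboxylase that makes serotonin and dopamine. Higher were *nlr-1* (0.59), a neurexin-like receptor, *unc-73* (0.20), a guanine nucleotide exchange factor for axon guidance, *dys-1* (0.24), dystrophin, *pde-4* (0.13), a phosphodiesterase, *smp-2* (0.27), a semaphorin, and *hmr-1* (0.10), the cadherin of cell junctions.

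The mutants were also compared with each other within the set. In the comparison of *sma-6* with *sma-3* mutants, 29 of the 243 genes were called (11.9%; 15 higher and 14 lower in *sma-6*), while 3169 of all 13720 genes tested were called (23.1%). The median absolute log2 difference was 0.08 in the set and 0.17 over all genes tested. The rule, which asks all 10 mutant libraries to lie on 1 side, favours genes with little spread and little difference between the mutants, so the lower share is not a result about these genes. The count of 29 became 19 without *sma-6* replicate 6. The change from the wild type was larger in *sma-3* mutants for 140 genes and larger in *sma-6* mutants for 102, beside 7665 and 6054 of all genes tested. Among the 29 genes that differed, 15 stood further from the wild type in *sma-6* mutants and 14 in *sma-3* mutants.

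The smallest p-values among genes for which *sma-6* mutants had the higher level were those of *nlr-1*, *Y43C5A.3* and *tag-293*. *nlr-1* was at 47.9, 46.4, 43.8, 40.4 and 47.2 CPM in the wild type, 53.0, 56.3, 55.6, 54.4 and 54.5 CPM in *sma-3* mutants and 93.0, 83.4, 84.2, 80.1 and 84.0 CPM in *sma-6* mutants, so that the rise was larger in *sma-6* mutants (difference 0.63, SE 0.06, edgeR adjusted p = 1.05e-06). The log2 rise of *Y43C5A.3* was 0.68 with *sma-3* mutated and 1.53 with *sma-6* mutated (difference 0.85, adjusted p = 5.36e-05). *tag-293* had its deeper fall in *sma-3* mutants (-3.19 against -1.73, difference 1.47, adjusted p = 0.000168), and *cdd-1* did too (-0.72 against -0.26, adjusted p = 0.000578).

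In the opposite direction the smallest p-values were those of *sma-6* itself, *F49C12.7* and *clec-170*. The log2 rise of *F49C12.7* was 2.13 with *sma-3* mutated and 1.54 with *sma-6* mutated (difference -0.59, edgeR adjusted p = 0.000618). *clec-170* changed by -0.34 and -0.85 in the same order (difference -0.50, adjusted p = 0.00146), so its fall was deeper in *sma-6* mutants. *fat-7* likewise fell further in *sma-6* mutants (-1.72 against -1.20, difference -0.52, SE 0.16, adjusted p = 0.0232), as did *cyp-13A12* (-1.09 against -0.52, adjusted p = 0.0167). *clec-70* rose further in *sma-3* mutants (difference -0.97, adjusted p = 0.00189) and *oac-58* in *sma-6* mutants (0.62, adjusted p = 0.0371).

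**Figure D5:**
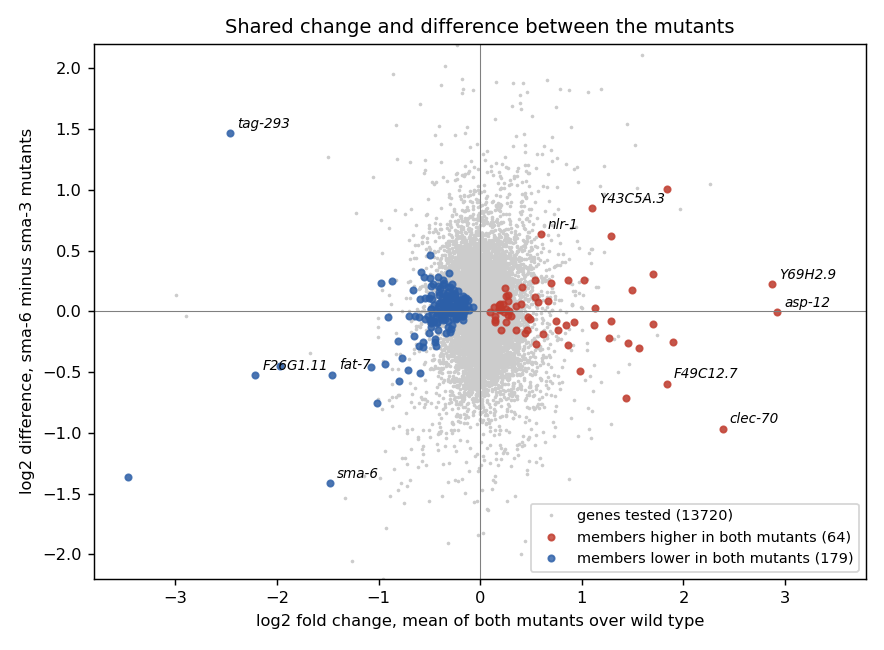
Log2 fold change of the mean of both mutants over the wild type (x axis) against the log2 difference of *sma-6* minus *sma-3* mutants (y axis), for the 13720 genes tested (grey) and the genes of the set that were tested (red, 64 higher; blue, 179 lower). Genes of the set spread along the x axis and lie mostly near 0 on the y axis, with *sma-6*, *tag-293*, *clec-70*, *Y43C5A.3* and *nlr-1* among the exceptions; 25 genes lie outside the axes, of them 1 of the set, *C08E3.13*.

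The genes of the set were expressed at a higher level than genes in general, with a median average log2 CPM of 5.41 against 4.09 over all genes tested. Their median exon length was 1680.5 bases for the higher and 1604 bases for the lower genes, against 1420 bases over all genes tested. The rule favours genes with little spread, and counting noise is smaller in abundant genes. Level and length are therefore a description and no result about the shared response. In the pooled comparison the median log2 fold change was -0.04 in the shortest of 4 classes of exon length and 0.04 in the longest. Against the wild type these medians were -0.08 and 0.06 in *sma-3* mutants and 0.02 and 0.01 in *sma-6* mutants. With the trend on exon length removed, 237 genes met the rule, of which 194 were in the main set. By annotation 248 of the 250 were protein-coding.

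The genes were spread over all 6 chromosomes, at 1.45% (chromosome II) to 2.17% (chromosome IV) of the genes tested on each. By position among the listed genes, 7 pairs of genes of the set were direct neighbours, and both genes of each pair moved in the same direction. Pairs within a row share genes and are not independent. As 182 of the 250 genes were lower, many pairs would agree in direction anyway, and no expected number was computed. The neighbours *C49A9.9*, *C49A9.4*, *C49A9.3* and *C49A9.2* lie in a row on chromosome IV (WBcel235, 6217372 to 6227995) and were all lower, with log2 fold changes of -0.61, -0.41, -0.64 and -0.54. *C49A9.4* and *C49A9.3* overlap by 9 bases, so reads there could be counted for either. On chromosome V *C52A10.2*, *B0238.1* (0.69) and *B0238.13* were neighbours and all higher. The remaining pairs were *C08E3.13* with *C08E3.1* on chromosome II and *eif-1.A* with *H06H21.8* on chromosome IV, all lower.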

How the data were processed

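Whole-animal poly-A RNA was made into libraries with a TruSeq stranded kit, per the labels' protocols. The submitters' processing notes name bcl2fastq, STAR 2.5.2b, featureCounts 1.5.2, limma and the build WBcel235, and the strand setting of the counting is not given in the sources used here. The table that the authors deposited lists raw counts, whole numbers, for 16259 genes in each library. Its CPM columns, deposited by the authors, equalled the counts scaled to each library's listed total, to within 0.0005, and served only as that check. The authors also deposited log2 fold changes, p-values and false discovery rates for *sma-3* mutants, which were not used here. No other sample's columns were present (0).

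Levels are CPM with TMM factors (edgeR 4.0.16, R 4.3.3). Tests used edgeR's quasi-likelihood fit to all 15 libraries with genotype as the only factor, on genes kept by filterByExpr (minimum count 10, minimum total 15), and Benjamini-Hochberg adjustment over all 13720 genes tested. Standard errors were derived from the F statistic. The labels do not say whether replicates were separate cultures, so p-values measure only the spread between these samples. No pair of replicates agreed within sampling noise (chi-square per degree of freedom 5.09 to 40.0). A floor of 3 counts corresponds to 0.0621 to 0.182 CPM per library. Intervals and floors cover counting or fitting error alone.

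The members and the 25 gene lists were chosen with earlier results of these data known. Named genes were both mutated genes, the 10 largest changes in each direction whose average log2 CPM was 1 or more, the 2 largest members per list, the 3 smallest p-values in each direction between the mutants, pathway genes called, and 2 genes on either side of the rule's edge. Genes said to be chosen after their values were seen lie outside this rule. The Ensembl 115 annotation of WBcel235 gave the position, biotype and exon length of 16068 genes. The pipeline was tested on simulated data. Alternatives were RLE factors (DESeq2's size factors), library totals, 2 further low-count filters, limma-voom (limma 3.58.1), DESeq2 1.42.0, 1 pooled mutant group, a replicate block and leaving out each library. Removal of the exon-length trend and an unblocked fit to the libraries used for the block came after the data had been looked at. Sequences were not used here.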

Additional observations from a re-analysis of the deposited data

Results flagged for a closer look

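The difference between the mutants was tested within the same fit and passed an edgeR adjusted p of 0.05 for 12 of the 47 genes named by the rule. Of the 47 genes, 6 had been named for their small p-values in this same comparison, and all 6 passed. Over all genes tested 23.1% passed, so the count is no result about the named genes. Both mutated genes were among them, at a log2 difference of *sma-6* minus *sma-3* mutants of 1.25 for *sma-3* and -1.41 for *sma-6*. Genes with the larger rise in *sma-3* mutants were *clec-70* (-0.97) and *F49C12.7* (-0.59). A larger rise in *sma-6* mutants was found for *oac-58* (0.62), *nlr-1* (0.63) and *Y43C5A.3* (0.85). The deeper fall was in *sma-3* mutants for *tag-293* (1.47) and *cdd-1* (0.47) and in *sma-6* mutants for *fat-7* (-0.52), *cyp-13A12* (-0.57) and *clec-170* (-0.50).

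A single library stood apart from the other 4 of its genotype, by Dixon's test, in 11 of 141 groups of 5 values examined, where chance alone gives about 5%. In the wild type these were *C44C1.6* in replicate 5 (3.69 CPM, others 4.93 to 5.18 CPM), *lbp-6* in replicate 3 (809.9 CPM, others 670.1 to 681 CPM) and *ttr-51* in replicate 3 (59.6 CPM, others 49.9 to 51.7 CPM). Replicate 1 stood apart for *bath-47* (8.80 CPM, others 7.06 to 7.47 CPM) and for *T13F2.2* (41.97 CPM, others 44.0 to 44.4 CPM). In *sma-3* mutants they were *C44C1.6* in replicate 5 (2.53 CPM, others 1.04 to 1.23 CPM), *lam-2* in replicate 9 (332 CPM, others 282 to 291 CPM) and *lon-1* in replicate 2 (225 CPM, others 182 to 191 CPM). In *sma-6* mutants replicate 4 stood apart 3 times, for *Y69H2.9* (13.7 CPM, others 10.9 to 11.7 CPM), *nhr-120* (26.3 CPM, others 20.1 to 21.7 CPM) and *sma-10* (72.1 CPM, others 48.1 to 54.6 CPM).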

How the results depend on the processing

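The pooled comparison called 825 genes (254 higher, 571 lower), the set held 250 (68 higher, 182 lower), and 29 of its tested genes differed between the mutants. Library totals gave 399 higher and 313 lower calls and a set of 106 higher and 99 lower genes. DESeq2 called 419 higher among 1234. With the 10 mutant libraries as 1 group, 340 genes were called (79 higher, 261 lower). A fit with the replicate block gave 502 calls (132 higher, 370 lower) and 12 genes of the set that differed between the mutants, against 518 (154 higher, 364 lower) and 17 for the same 13 libraries without the block. Same-numbered libraries had correlations of -0.14 to 0.15 over 11 pairs, with 2 over 0.1, and only 3 libraries correlated best with their own number. No reference was computed for these correlations, so whether same-numbered samples were linked cannot be told from them.

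Leaving out 1 library at a time gave 451 to 1134 calls (133 to 340 higher, 313 to 794 lower), sets of 262 to 452 genes (71 to 117 higher, 183 to 335 lower) and 19 to 33 genes that differed between the mutants. *sma-3* in *sma-3* mutants lay between -1.49 and -1.37 and *sma-6* in *sma-6* mutants between -2.23 and -2.14. No fold change of a named gene changed sign under the alternatives run, while some list medians close to 0 did (that of lipid binding genes was -0.04 with TMM and 0.02 with library totals). For single genes, 439 values under the settings other than omissions kept their side of the threshold, 26 lost it and 5 gained it. The rule has no values under DESeq2, limma-voom, the pooled group or the block, so the set was not rebuilt there. Genes in families, and genes that overlap, may share reads, which counts cannot show.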
